A study of Vitis vinifera with 7 samples.

Results

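In berries of the white grapevine cultivar Sauvignon blanc (Vitis vinifera), 150 of 28811 array probes had a signal that peaked at veraison, the onset of ripening, and lay lower again in ripe berries. The probes were selected on their measured values in all 3 stages. A peak here means the highest of these 3 stages, since berries between them were not measured. A probe was counted when its lowest value on the 3 veraison arrays was at least 2 above its highest value on the 3 green arrays on the log2 scale, which is 4-fold, and when its value on the ripe array was at least 1 (2-fold) below the lowest veraison value. They made up 0.521% of all probes. Because all 7 arrays entered this choice, the heights of the rise and of the drop are descriptions of the chosen probes and carry no test. All green, veraison and ripe berries were of the same cultivar, and the labels name no treatment. The titles of all 7 samples carry the tag "sh", which is not interpreted here. Green berries (EL-31) and berries at veraison (EL-34) were represented by 3 arrays each and ripe berries (EL-38) by 1, the EL numbers being stages on a common scale of grapevine growth. The ground tissue of a stage was pooled, and its replicates were separate RNA extractions from that pool, so the spread given covers extraction, labelling and hybridisation and not vines or bunches. The ripe array has no replicate. The table gave no gene names, sequences or positions for the probes, and none of its identifiers was in the RefSeq gene table used here, so probes are given by identifier.

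Veraison separates 2 phases of growth in the grape berry. Before it the hard green berry divides and expands its cells and stores organic acids, and after it the berry softens, takes up sugar, loses acid and chlorophyll and gains aroma. Abscisic acid rises around this time, the walls of the flesh cells are remodelled, and sugar reaches the berry by another route of unloading from the phloem. In whole-berry RNA, a change of a transcript per cell and a change in the share of the cells that hold it cannot be told apart.

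Veraison extraction 2 stood apart from the other two over the whole table. The SD of the log2 difference over all probes was 0.204 between veraison extractions 1 and 3, against 0.596 between extractions 1 and 2 and 0.529 between extractions 2 and 3. Array medians over all probes ran from 9.17 to 9.22. The rule and the counts of calls are therefore also given without extraction 2 further on, while values of single probes are given for every extraction.

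The median signal of the 150 probes was below that of all probes in green berries and above it at veraison. Most of the 150 came part of the way back. The median over the 150 was 8.14, 8.02 and 7.94 log2 in the green extractions, 12.26, 12.26 and 12.23 in those of veraison, and 9.82 in ripe berries. Over all probes it was 9.22, 9.21 and 9.20 in the green extractions. In green berries 38 of them (25.3%) were among the dimmest 25% of all probes. At veraison 91 (60.7%) were among the brightest 25%, and in ripe berries 23 (15.3%) still were. Veraison means of single probes ran from 7.58 to 15.54, and 2 probes reached 15 on an array, near the top of the scale at 15.99. The probes thus spanned much of the measured range.

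**Figure D1:**
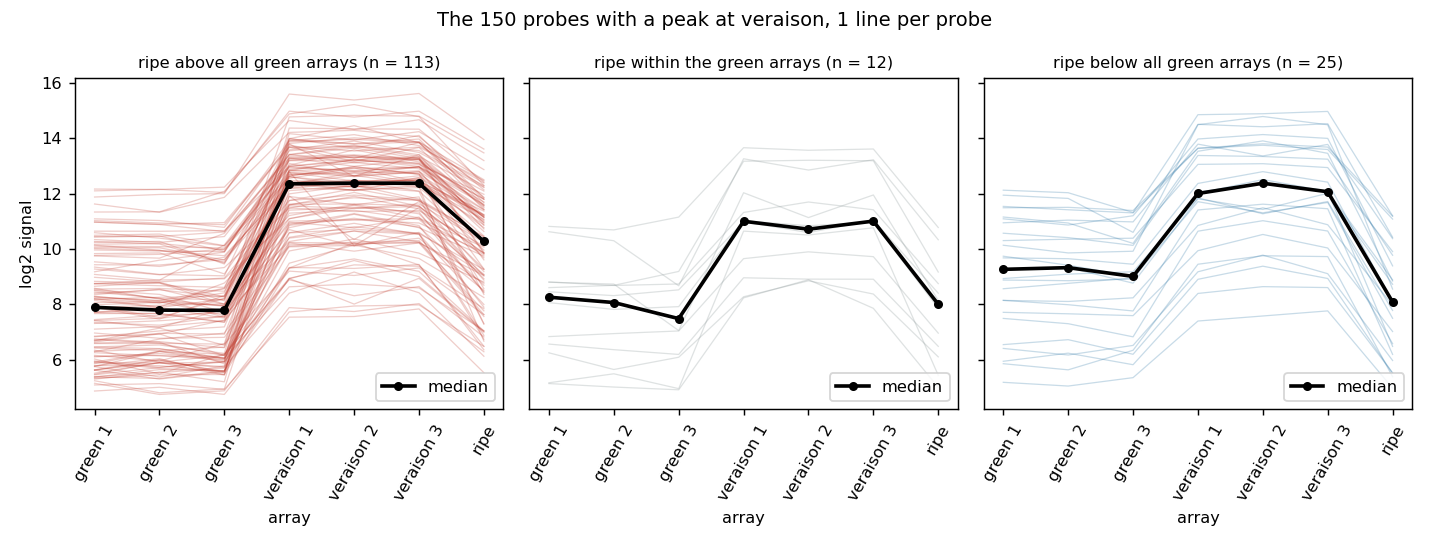
Log2 signal of the 150 probes on each of the 7 arrays, 1 line per probe, split by whether the ripe value lay above (113 probes), within (12) or below (25) the values of the 3 green arrays. Black points are the median over probes; the 3 veraison arrays lie high in each panel by the choice of the probes, and the panels differ in where the ripe array ends.

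The rise was larger than the drop in most of these probes. The lowest veraison value exceeded the highest green value by a median of 2.93 log2, with a highest value of 7.94. It did so by at least 3 in 73 probes, by at least 4 in 43 and by at least 6 in 11. The ripe value lay below the lowest veraison value by a median of 1.99 and at most by 5.94. This drop was at least 2 in 74 probes, at least 3 in 29, at least 4 in 14 and at least 5 in 5. On the linear scale the ripe signal was between 1.52% and 46.7% of the veraison signal, with a median of 22.3%. Expressed on the log2 scale as a share of the distance between the veraison and the green mean, the probes lost a median of 58.9%, from 15.8% to 173%. Under 50% of the rise was lost by 55 probes, 50% to under 90% by 56, 90% to 110% by 16, and over 110% by 23. Among the chosen probes, 39 lost 90% or more of the rise, and most of the 150 kept part of it. The rule asks for a rise of at least 2 but a drop of only 1, so it admits probes that come back only part of the way. The larger rise and the partial return are thus favoured by the choice.

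Among all probes, 774 (2.69%) met the limit on the rise and 1576 (5.47%) that on the drop. The 150 probes were 19.4% of the first list and 9.52% of the second. The other 624 risen probes had a ripe value above all veraison values in 372 cases, within the veraison range in 70, and below it by less than the limit in 182. Their median signal was 7.53 in green berries, 11.58 at veraison and 12.24 in ripe berries, against 8.04, 12.25 and 9.82 for the 150. The median rise over the lowest and highest arrays was 2.93 for the 150 and 2.95 for the 624, and the share in the dimmest 25% in green berries was 25.3% for each. The lists differed most in the ripe value, where the rule separates them. No test was made of these values, since the rule used them.

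**Figure D2:**
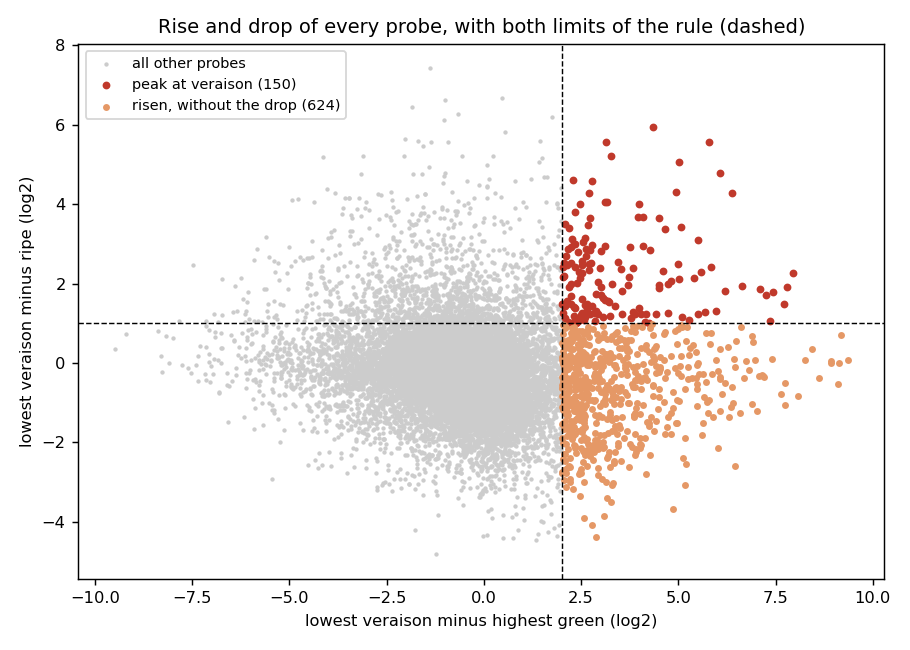
For each of the 28811 probes, the lowest veraison value minus the highest green value (x axis, log2) and the lowest veraison value minus the ripe value (y axis, log2). Dashed lines mark the limits of 2 and 1; the 150 probes with a peak at veraison fill the upper right, and the 624 probes that rose without the drop lie below them, mostly at negative values, where the ripe value exceeds the lowest veraison value.

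Some probes lay just on either side of the limits. Closest above the limit on the rise were VitusP00163151 with 2.02 and VitusP00269288 with 2.02, and closest below it, with a sufficient drop, were VitusP00134881, just under the limit, and VitusP00116691 with 1.99. Closest above the limit on the drop were VitusP00113908 with 1.01 and VitusP00217679 with 1.02, and closest below it were VitusP00247681 with 0.98 and VitusP00007840 with 0.96. At the limit on the rise, these probes differ by less than the SD between extractions. The drop also rests on the single ripe array, whose spread is unknown. Membership near either limit is therefore uncertain.

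The largest drop was that of VitusP00006598. Its log2 signal was 10.14, 9.86 and 9.92 in green berries, 14.50, 14.79 and 14.49 at veraison, and 8.55 in ripe berries. The ripe value was the lowest of the 7 arrays, with a ripe minus green difference of -1.42 (SE 0.19, limma adjusted p 0.000856), and 1.52% of the linear veraison signal was left. VitusP00137660 was at 8.88, 8.86 and 8.91 in green berries, 12.06, 12.38 and 12.07 at veraison, and 6.48 when ripe. It ended farthest below its starting level of all 150 probes, with a ripe minus green difference of -2.40 (SE 0.17, limma adjusted p 4.75e-05).

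VitusP00218701 and VitusP00233798 ended near their green level. VitusP00218701 had 6.42, 6.33 and 6.46 in green berries, 12.27, 12.50 and 12.25 at veraison, and 6.67 when ripe. The difference of 0.27 from green was not called (SE 0.16, limma adjusted p 0.206), and 95.5% of the rise was lost. VitusP00233798 had 5.17, 5.49 and 4.95 in green berries, 10.65, 10.51 and 10.77 at veraison, and 5.44 when ripe. The ripe value was within the green arrays, and the difference of 0.23 was not called (SE 0.23, limma adjusted p 0.425). In both probes the green and ripe signals were in the dim part of the scale.

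The other 4 of the 8 largest drops ended below green, except VitusP00214764. VitusP00011921 had 8.15, 7.99 and 7.76 in green berries, 11.41, 11.62 and 11.46 at veraison and 6.19 when ripe, with a ripe minus green difference of -1.77 (SE 0.19, limma adjusted p 0.000294). VitusP00221641 had 11.09, 10.87 and 11.20 in green berries, 13.98, 14.14 and 14.00 at veraison and 9.39 when ripe. Its ripe value also lay below every green value, and the difference from the green mean was -1.66 (SE 0.18, limma adjusted p 0.000284). In VitusP00255173 the green extractions differed among themselves, with 11.16, 10.94 and 10.20, the veraison values were 13.53, 13.91 and 13.46, and the ripe value was 8.85, which is -1.92 relative to the green mean (SE 0.37, limma adjusted p 0.00434). VitusP00214764 was the exception that stayed above green. It had 5.63, 6.01 and 5.53 in green berries, 12.11, 12.27 and 12.08 at veraison and 7.30 when ripe, so that 1.58 of its rise was left (SE 0.21, limma adjusted p 0.00087). Of the 14 probes with a drop of at least 4, the ripe value lay below all green arrays in 8, within them in 2 and above them in 4.

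**Figure D3:**
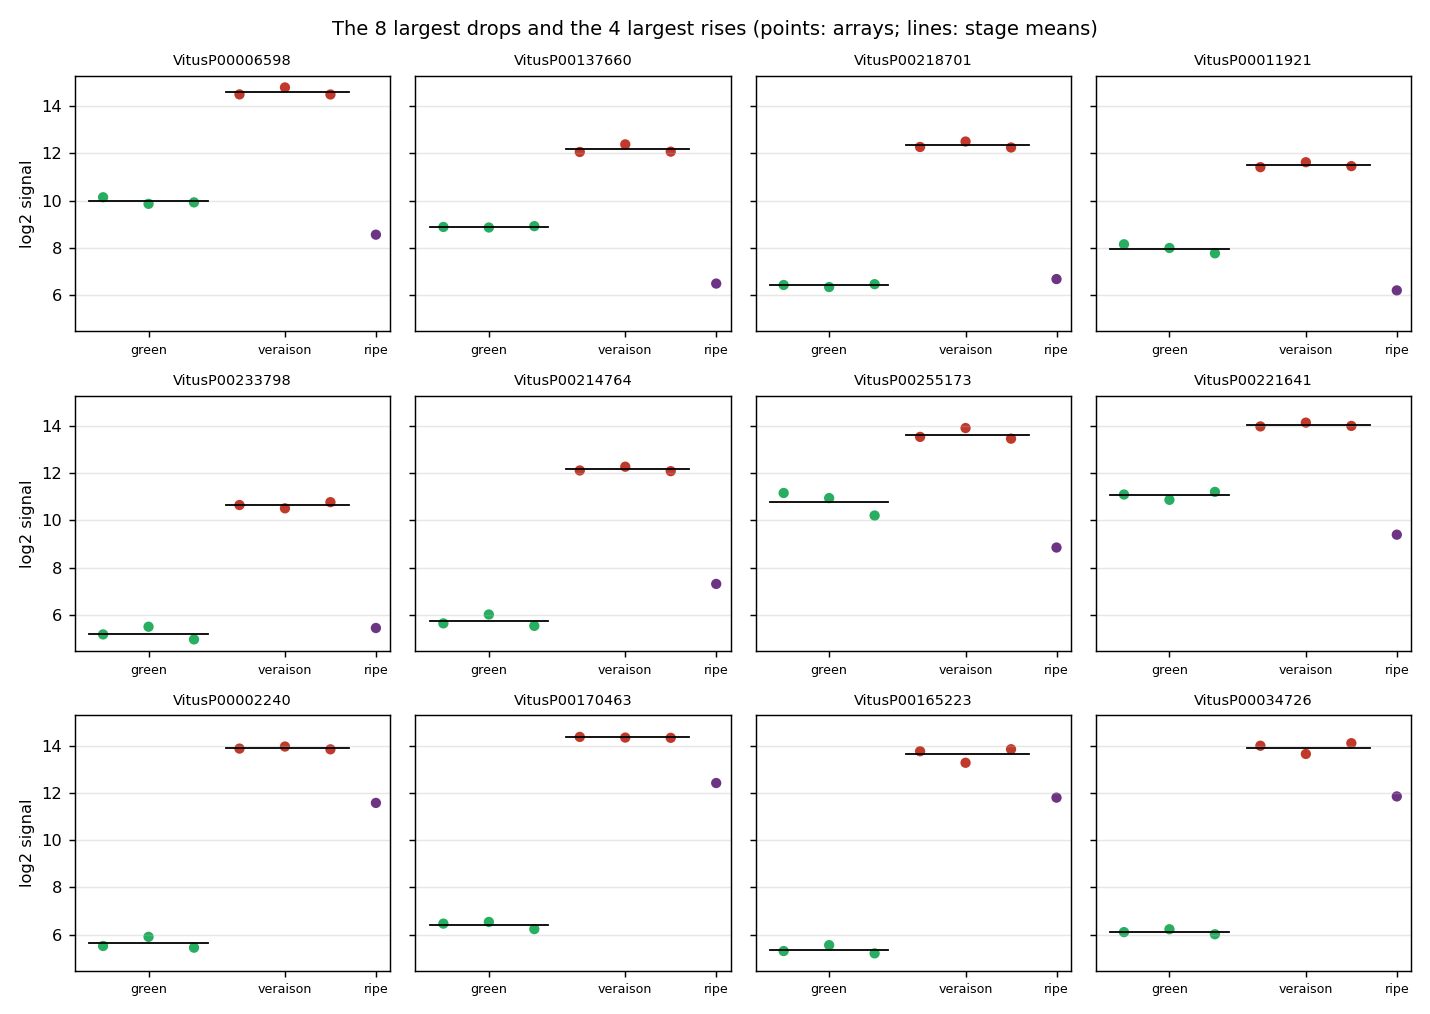
Log2 signal on each array for the 8 probes with the largest drop (upper 2 rows) and the 4 with the largest rise (lowest row); points are arrays (green, veraison and ripe from left to right) and lines are stage means. In the upper rows the ripe point is near or below the green points except in VitusP00214764, and in the lowest row it stays far above them.

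The largest rises kept most of their height. VitusP00002240 had 5.52, 5.90 and 5.44 in green berries, 13.88, 13.96 and 13.85 at veraison, and 11.58 when ripe. It lost 28.0% of its log2 rise and in ripe berries was still 5.96 above green (SE 0.21, limma adjusted p 2.21e-06). VitusP00170463 had 6.46, 6.53 and 6.23 in green berries, 14.37, 14.34 and 14.33 at veraison, and 12.42 when ripe. Its veraison extractions were within 0.04 of each other. VitusP00165223 had 5.30, 5.55 and 5.20 in green berries, 13.76, 13.28 and 13.85 at veraison, and 11.80 when ripe, with veraison extraction 2 the lowest of its stage.

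VitusP00034726 and VitusP00063751 followed the same course. VitusP00034726 was at 6.11 ± 0.11 in green berries, 13.92 ± 0.24 at veraison (SD, n = 3 each) and 11.85 when ripe. VitusP00063751 was at 5.50 ± 0.17 in green berries, 12.97 ± 0.14 at veraison (SD, n = 3 each) and 11.16 when ripe. VitusP00165177 kept the most. It had 6.16, 5.95 and 6.58 in green berries, 14.17, 13.94 and 14.24 at veraison, and 12.87 when ripe, lost 15.8% of its rise, and was 6.64 above green in ripe berries (SE 0.26, limma adjusted p 3.41e-06). Of the 11 probes with a rise of at least 6, all had a ripe value above all green arrays and 9 lost under 50% of the rise. The median share lost was 46.3% among the 73 probes with a rise of at least 3 and 79.0% among the 77 with a smaller rise. This share has the rise in its denominator, and a larger rise lowers it by construction.

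The 3 probes with the highest veraison means had a high signal at every stage. VitusP00174384 had 11.88, 11.97 and 12.00 in green berries, 15.60, 15.39 and 15.62 at veraison, and 13.96 when ripe. VitusP00130051 had 11.34, 11.35 and 12.09 in green berries, 14.88, 15.22 and 14.79 at veraison, and 12.30 when ripe. VitusP00018990 had 12.10, 12.16 and 12.04 in green berries, 14.98, 14.77 and 14.98 at veraison, and 13.61 when ripe. VitusP00174384 and VitusP00018990 remained above green when ripe, by 2.01 and 1.51 (limma adjusted p 7.26e-05 and 0.000242). The difference of 0.71 in VitusP00130051 was not called (SE 0.33, limma adjusted p 0.113). Green extraction 3 was the highest of its stage in VitusP00130051, and without it the difference was 0.96 and passed the threshold (limma adjusted p 0.015).

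The rule sets no direct limit on ripe against green, and this comparison describes where the 150 probes ended. Both stages do enter the rule through their distance to veraison. With a rise of at least 2, any drop under 2 leaves the ripe value above all green values. Only 74 of the 150 had a drop of at least 2, so for the rest this position was fixed by the limits. The counts therefore describe the chosen probes, and the shares over all probes beside them are no test. With limma and Benjamini-Hochberg adjustment over all 28811 probes, at a threshold of 0.05, 97 of the 150 were higher in ripe than in green berries, where 30.7% of all probes were called higher. A further 12 were lower, where 22.4% of all probes were called lower, and 41 were not called. The lone ripe array was assumed to vary like the others in this fit. The replicates in the fit are extractions from a pool, so its p values compare the pools and not vines or bunches. Without veraison extraction 2, which adds to the spread shared by all stages, 101 were higher and 13 lower, against a background of 36.3% and 28.1%, and all 97 and 12 probes were called again. The median ripe minus green difference was 1.38 over the 150 and 0.13 over all probes. Ripe was at least 1 above the green mean in 88 probes, at least 3 above in 26 and at least 4 above in 14, and at least 1 below in 9.

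By position alone, the ripe value lay above all 3 green values in 113 probes, within them in 12 and below them in 25. Over all probes 49.6% were above and 37.9% below. The position above green is fixed by the rule for every chosen probe with a drop under 2. The 113 probes above green had a median ripe minus green difference of 1.66, and the called rises ran from 0.72 to 6.64. Their median green mean was 7.90, and that of the 25 probes that ended below green was 9.12. The 25 probes had a median veraison minus green difference of 2.87, against 3.64 in the 113, and a median ripe minus veraison difference of -3.56, against -1.81. These medians share the values that define the classes, and no test was made of them.

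**Figure D4:**
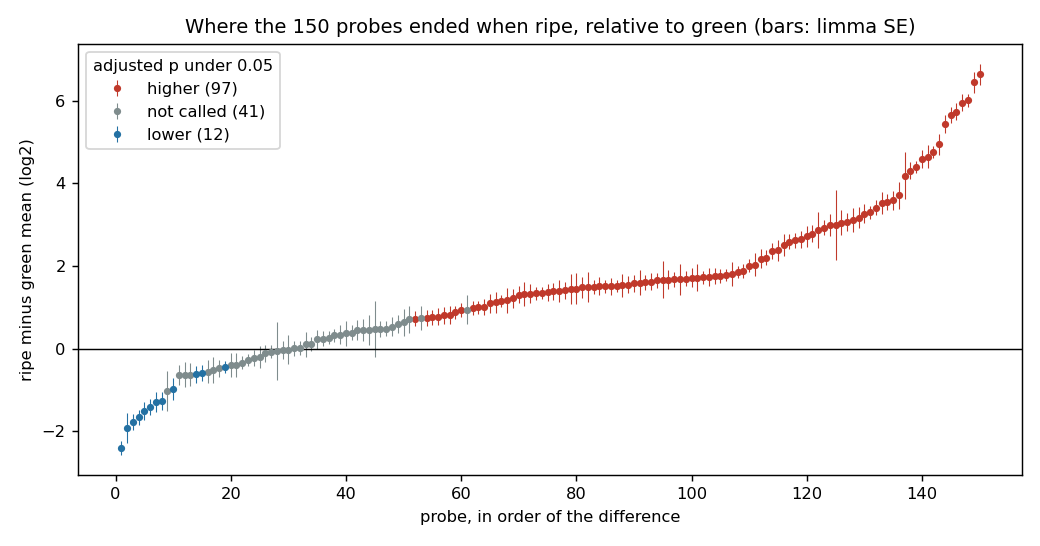
Ripe value minus green mean (log2, y axis) for the 150 probes in order of that difference, with the limma standard error as bars. Red points were called higher in ripe berries (97), blue points lower (12), and grey points were not called (41).

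In the 12 probes whose ripe value lay among the green values, the ripe minus green differences ran from -0.11 to 0.47. VitusP00007325 had a green mean of 8.74 ± 0.06, a veraison mean of 11.48 (n = 3 each) and a ripe value of 8.75. VitusP00274054 had a green mean of 8.43 ± 0.11, a veraison mean of 10.88 (n = 3 each) and a ripe value of 8.40. Both were picked after their values were seen, as examples with a small spread. In VitusP00120829 and VitusP00120849 the green SD was 1.05 and 0.99, and green extraction 3 was the lowest of its stage in each. In VitusP00120849 the ripe value lay within green only with that array. Over the 41 probes that were not called, the difference ran from -1.03 to 0.95, and 29 were within 0.5 of green. A p that misses the threshold does not show that these probes were at the green level.

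Below green, the called differences ran from -0.45 to -2.40 with a median of -1.35. Besides the probes named above, VitusP00071938 had 9.68, 9.65 and 9.45 in green berries, 12.37, 12.80 and 12.42 at veraison, and 8.08 when ripe, which is -1.51 relative to the green mean (SE 0.21, limma adjusted p 0.000991). In each of the 12 probes called lower, the ripe value lay below all green arrays. That veraison was the highest stage is fixed by the rule.

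The chosen probes differed little between veraison extractions. The median SD at veraison was 0.167 over the 150, 0.159 over the other 624 risen probes and 0.188 over all probes, and that of the green stage was 0.179, 0.188 and 0.138. A rule that uses the lowest veraison array leaves out probes with 1 low extraction, and it does so most for extraction 2. Extraction 2 was at least 1 below the mean of extractions 1 and 3 in 2 of the 150 probes (1.33%), against 5.43% of all probes. It lay above that mean in 89 of the 150 (59.3%), close to the 61.1% of all probes. The 3 widest veraison ranges all had extraction 2 as the lowest array. VitusP00209330 had 5.96, 5.73 and 5.94 in green berries, 12.80, 10.12 and 11.50 at veraison, and 8.88 when ripe. VitusP00157011 had 5.24, 4.81 and 4.95 in green berries, 11.91, 10.34 and 11.72 at veraison, and 9.18 when ripe. VitusP00204746 had 8.83, 8.78 and 8.28 in green berries, 13.80, 12.63 and 13.41 at veraison, and 11.51 when ripe.

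Limma's calls on the contrasts of the rule were read as a description only. All 150 probes were called higher at veraison than in green berries, where 26.4% of all probes were, and 148 were called lower in ripe berries than at veraison, where 10.0% of all probes were. The 2 that missed were VitusP00209330, at -2.59 relative to the veraison mean (SE 0.85, limma adjusted p 0.067), and VitusP00204507, at -1.19 (SE 0.37, limma adjusted p 0.0579). Without extraction 2 the count was 149, against 19.6% of all probes. VitusP00209330 also had the least certain end level, 3.003 above green (SE 0.85, limma adjusted p 0.0219), and this call was lost in 6 of its 14 alternatives. These were leaving out green extraction 2 (limma adjusted p 0.054) or green extraction 3 (limma adjusted p 0.0519), the replicate block (limma adjusted p 0.0554), 50 added before the logarithm (limma adjusted p 0.0612), the test against a 2-fold change (limma adjusted p 0.124) and a threshold of 0.01.

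When the rule was applied without 1 array, the array left out could be read as a measurement that had not taken part in the choice. That array is another extraction from the same pool, so the reading covers repeatability between extractions and not between vines or bunches. Without green extraction 1, 2 or 3, the rule chose 153, 155 and 162 probes. The green array left out met the limit on the rise as well in 98.0%, 96.8% and 92.6% of them, and lay below all veraison arrays in every one. Without veraison extraction 1 it chose 155 probes and without extraction 3 it chose 154. The omitted extraction was above the ripe array in all of these and met both limits in 96.8% and 97.4%. Without veraison extraction 2 it chose 197 probes, and extraction 2 met both limits in 150 of them (76.1%). It was above the green arrays in 195 and above the ripe array in 188. The ripe array took part in every choice, so its low value has no such second reading.

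A further 47 probes entered without veraison extraction 2. Extraction 2 was the lowest of its stage in each, which the rule fixes, since leaving out another than the lowest array adds no probe. It lay below the mean of extractions 1 and 3 by a median of 1.28 and at most by 2.80, while extractions 1 and 3 differed by a median of 0.10 and at most by 0.52. In these probes the omitted extraction missed the limit on the rise in 26 and that on the drop in 33, and in 9 it lay below the ripe array. With the rule and the means taken without extraction 2, 834 probes met the limit on the rise and 2829 that on the drop, against 774 and 1576 with it, so the second list depended strongly on this extraction. The 197 probes that met both had a median rise of 2.99, a median drop of 2.03 and a median of 59.2% of the rise lost, with 77 under 50% and 49 at 90% or more. A median of 23.3% of the linear veraison signal was left when ripe. The ripe value was above all green arrays in 149 of the 197, within them in 15 and below them in 33. Of the 394 places next to one of the 197 in the table ordered by identifier, 30 (7.61%) were held by another of them, where 0.684% of all probes were chosen.

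Some of the 150 probes stood next to each other in the table, which is ordered by identifier. The rule did not use the identifiers, and what order their numbers follow is not given in the sources used here. Of the 300 places directly before or after a chosen probe, 22 (7.33%) were held by another chosen probe, where 0.521% of all probes were chosen. A further 11 (3.67%) were held by one of the 624 other risen probes, which were 2.17% of all probes. In all, 20 of the 150 probes (13.3%) formed 9 runs, 7 of 2 probes and 2 of 3. Over the 28810 pairs of neighbouring probes in the table, which share arrays and can share sequence, Pearson's r was 0.14 for the veraison minus green difference and 0.14 for ripe minus veraison. Whether neighbouring probes detect the same or related transcripts was not tested, because no probe sequences were used here.

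The run of VitusP00249613, VitusP00249622 and VitusP00249628 had large drops in all its members. VitusP00249613 had 6.25, 6.14 and 6.07 in green berries, 12.64, 12.98 and 12.70 at veraison, and 8.36 when ripe. VitusP00249622 had 6.02, 5.49 and 6.20 in green berries, 9.33, 9.30 and 9.44 at veraison, and 6.36 when ripe. VitusP00249628 had 6.34, 5.91 and 6.16 in green berries, 10.42, 10.81 and 10.57 at veraison, and 6.74 when ripe. Their veraison minus green differences were 6.62, 3.46 and 4.46, and they lost 66.7%, 86.8% and 86.6% of the rise. The run of VitusP00255732, VitusP00255742 and VitusP00255751 had green means of 7.24, 8.83 and 7.47, veraison means of 10.53, 13.19 and 12.36, and ripe values of 7.995, 9.17 and 9.28. These probes lost 76.9%, 92.2% and 63.0% of the rise.

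Neighbouring probes could differ in the size of the rise. VitusP00165221 had a green mean of 5.54, a veraison mean of 8.63 and a ripe value of 6.99, and its neighbour VitusP00165223, named above for its large rise, had 5.35, 13.63 and 11.80. Their veraison minus green differences were 3.09 and 8.28, and their ripe minus veraison differences -1.64 and -1.83. VitusP00158767 and VitusP00158782 had green means of 4.92 and 5.90, veraison means of 7.88 and 12.26, and ripe minus veraison differences of -1.60 and -1.96. VitusP00280458 and VitusP00280470 lost 52.0% and 52.1% of rises of 2.96 and 3.92. VitusP00289640 and VitusP00289651 lost 45.9% and 51.1%, VitusP00146166 and VitusP00146182 52.7% and 45.6%, VitusP00088581 and VitusP00088599 66.1% and 68.5%, and VitusP00071031 and VitusP00071033 75.1% and 41.7%. Over the 11 neighbouring pairs in the runs the median difference between these percentages was 15.2.

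**Figure D5:**
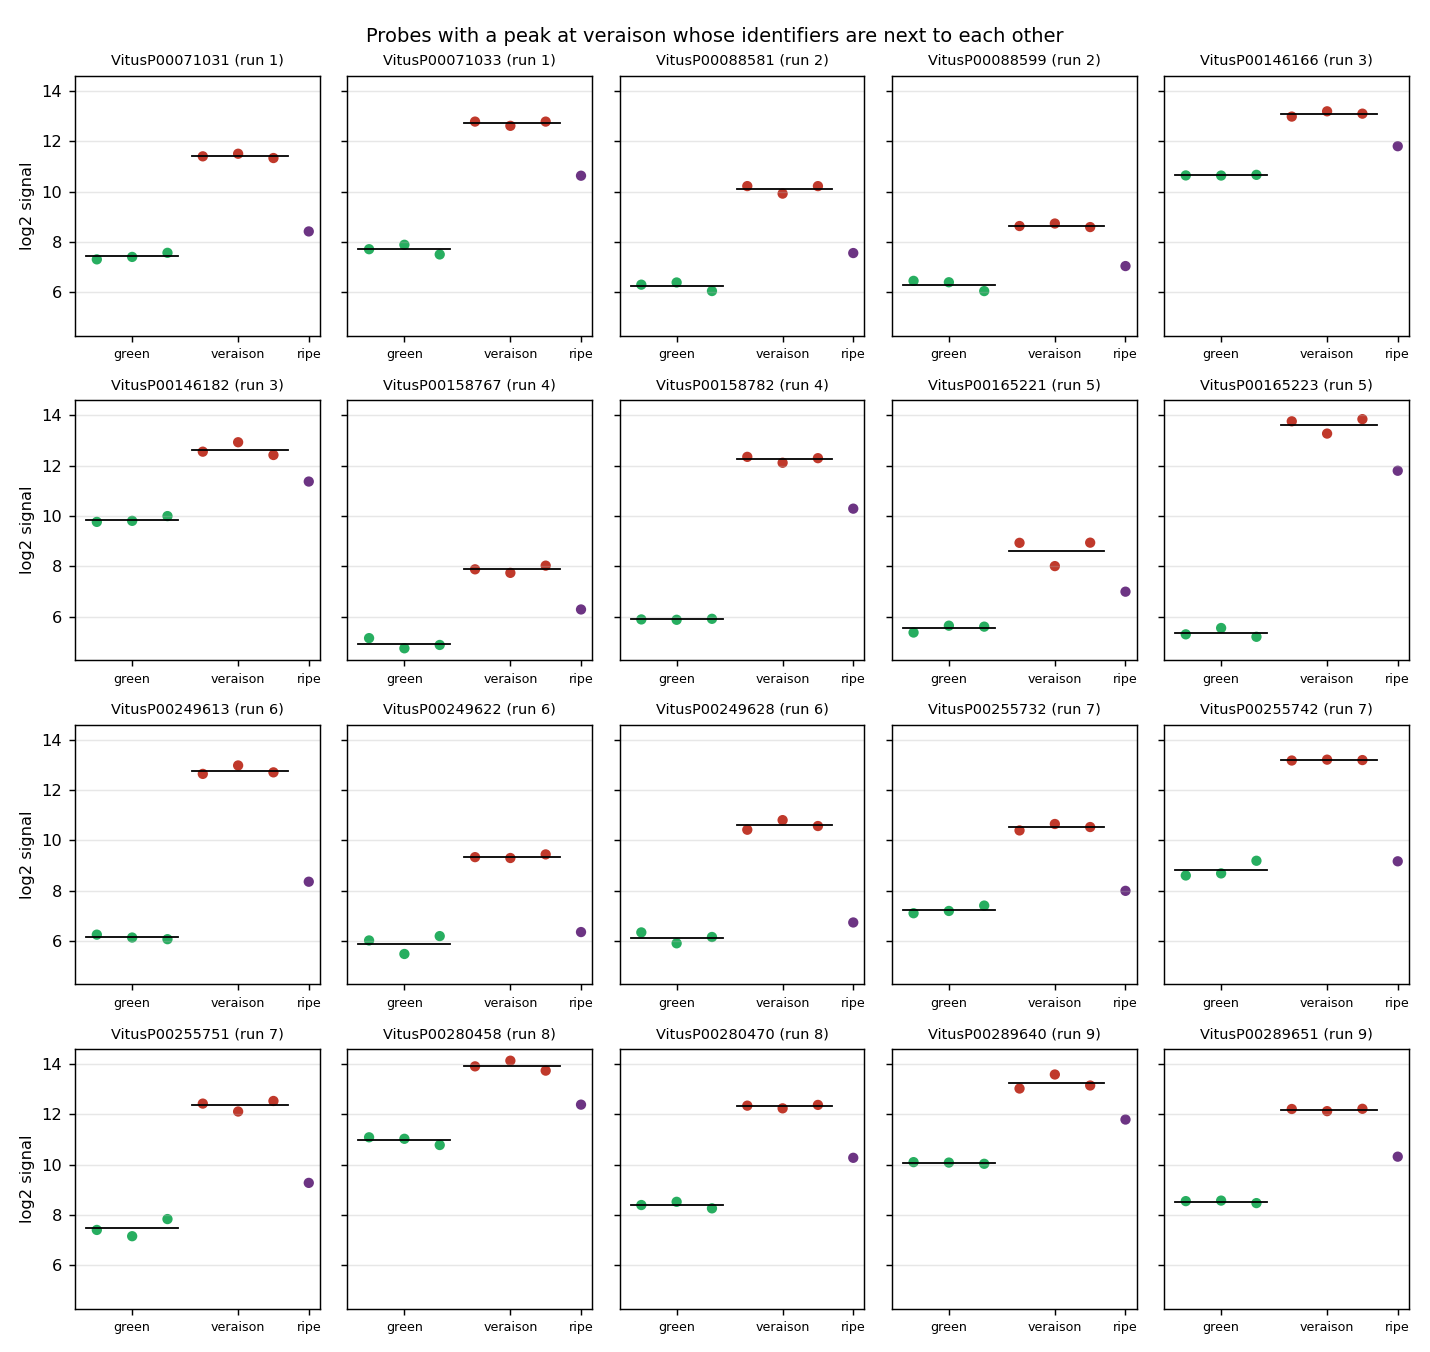
Log2 signal on each array (points; green, veraison and ripe from left to right) with stage means (lines) for the 20 probes in 9 runs of neighbouring identifiers. Members of a run share the peak at veraison by their choice, and the rise can differ within a run, for example 3.09 in VitusP00165221 and 8.28 in VitusP00165223.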

How the data were processed

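The deposited table held log2 signals, 1 per probe identifier and array, which the authors had processed with RMA, per the submitters' processing notes. Base 2 was inferred from the range of values, 4.06 to 15.99, which ends under the limit of a 16-bit scanner. Background correction and summary are not described further, no detection flags were used, and the deposited scaling was kept. Signals of different probes are not on a common scale of abundance. The precision is limited by how many arrays there were. Since the tissue of each stage was pooled, more arrays of a pool would not measure the spread between vines or bunches.

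Stage differences came from limma 3.58.1, run in R 4.3.3 (lmFit and eBayes, stage as the only term, all 7 arrays, two-sided, Benjamini-Hochberg over 28811 probes). The threshold for a call was an adjusted p of 0.05. In green and veraison arrays of equal replicate number, the deviations from the stage means correlated at -0.21, -0.12 and 0.05. Arrays of unequal number gave -0.12 to 0.20. The main fit did not use the numbers as pairs, and a shared batch was not tested.

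The probes and rules were chosen with earlier results of these data known. Named were the 8 largest drops, the 6 largest rises, the 4 ripe values farthest above and the 4 farthest below green, the 3 highest veraison means, the 3 widest veraison ranges, and the 2 probes on either side of each limit. Runs of neighbouring identifiers were examined after the values were seen. Planned gene and marker lists were not used, because no probe had a gene name. The alternatives were other normalizations, filters, variances, limits and thresholds, the replicate number as a block, and each green or veraison array left out.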

Additional observations from a re-analysis of the deposited data

How the results depend on the processing

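The number of probes with a peak at veraison, 150, was 73 with a limit of 3 on the rise, 74 with a limit of 2 on the drop, 226 with a limit of 0.5 on the drop and 232 with stage means in place of the lowest and highest arrays. It was 153 to 197 without single arrays, and highest without veraison extraction 2. Against a 2-fold change (limma's treat), 80 of the 150 probes were called lower in ripe than in veraison berries, 55 higher in ripe than in green berries and 3 lower than in green berries. This test is stricter by construction. The median ripe minus green difference of 1.38 was 1.10 after adding 50 to the linear signal, a step that compresses dim values. The other alternatives left the counts of called probes within 1.5 times the reported ones. When single arrays were left out, ripe exceeded green in 96 to 101 called probes and was below it in 8 to 13, 142 to 149 were lower in ripe than in veraison berries, and 150 higher at veraison than in green berries. In the fit with a replicate block, ripe exceeded green in 91 called probes and was below it in 10, 138 were lower in ripe than in veraison berries, and 150 higher at veraison than in green berries. Whether equal replicate numbers mark a shared batch was not tested, and this fit is given as an alternative only. Among 350 recomputed ripe minus green differences of named probes, 335 kept their side of the threshold, 12 lost the call, 3 gained it, and no called difference changed sign. With 1 ripe array, no value of the drop could be checked in a second extraction.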
